A study of Mus musculus with 6 samples.

Results

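Chromatin accessibility was measured by ATAC-seq at the loci of 7 genes of the hypoxia-inducible factor (HIF) pathway, *Hif3a*, *Hif1a*, *Epas1*, *Arnt*, *Egln1*, *Egln3* and *Vegfa*, in astrocyte nuclei of mouse primary visual cortex (V1) at P21. A locus was the gene body with 50 kb to each side, and its members were the peaks with their summit inside it, 823 of the 1116429 peaks of 6 libraries. All animals were *GR fl/fl* mice, in which Cre deletes part of *Nr3c1*, the gene of the glucocorticoid receptor (GR). At P0 to P1 they received an AAV2/5 vector in which the GfaABC1D promoter drives Cre, followed by T2A, EGFP-KASH and 4x6T (GR-KO), or a vector that differs in carrying ΔCre, which does not recombine (GR-con). GfaABC1D directs expression to astrocytes, KASH carries EGFP to the nuclear envelope, and DRAQ5+/GFP+ nuclei were sorted, so uninfected nuclei were left out. Each condition had 3 libraries, each pooled from the V1 of 3 to 4 animals. In such bulk libraries, less signal per nucleus and fewer nuclei with the signal cannot be told apart.

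HIF transcription factors pair an oxygen-regulated α subunit (HIF-1α from *Hif1a*, HIF-2α from *Epas1*, HIF-3α from *Hif3a*) with a constant partner, ARNT. With oxygen present, prolyl hydroxylases such as PHD2 (*Egln1*) and PHD3 (*Egln3*) mark the α subunits for destruction through the VHL ubiquitin ligase. When oxygen is short, the dimers bind a short core sequence near targets such as *Vegfa*, which encodes a vascular growth factor. Some HIF-3α isoforms lack a transactivation domain and restrain the other α subunits.

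Summits within 200 bp of a common centre were joined into sites, 208 at the 7 loci of 281376 in all. Tested were the sites where 2 or more libraries held a peak, 160 at the 7 loci of 214328 in all. The sequences of the 3 member sites that passed the test, and of the *Hif3a* site with the smallest p by fold, are shown so that the elements the results turn on can be read. Each covers 201 bp around the centre (mm10, plus strand), with hypoxia response cores (ACGTG or GCGTG, either strand) and GR hexamers (AGAACA, either strand) in capitals.
*Hif3a*, intron, 4111 bp into the gene, chr7:17058216-17058416: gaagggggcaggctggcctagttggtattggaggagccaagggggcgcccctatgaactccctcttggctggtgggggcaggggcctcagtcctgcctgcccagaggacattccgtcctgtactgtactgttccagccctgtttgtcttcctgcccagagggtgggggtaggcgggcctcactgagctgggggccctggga
*Hif3a*, intron, 2233 bp into the gene, chr7:17060094-17060294: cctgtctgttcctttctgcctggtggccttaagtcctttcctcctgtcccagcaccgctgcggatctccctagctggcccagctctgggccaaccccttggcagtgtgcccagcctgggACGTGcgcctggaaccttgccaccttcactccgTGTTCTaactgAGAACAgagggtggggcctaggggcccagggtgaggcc
*Hif3a*, intron, 1260 bp into the gene, chr7:17061067-17061267: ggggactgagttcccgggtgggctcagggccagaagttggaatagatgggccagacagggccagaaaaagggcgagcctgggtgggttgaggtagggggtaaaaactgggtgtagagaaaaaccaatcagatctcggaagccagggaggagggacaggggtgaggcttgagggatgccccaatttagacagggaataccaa
*Egln1*, intron, 22662 bp into the gene, chr8:124926562-124926762: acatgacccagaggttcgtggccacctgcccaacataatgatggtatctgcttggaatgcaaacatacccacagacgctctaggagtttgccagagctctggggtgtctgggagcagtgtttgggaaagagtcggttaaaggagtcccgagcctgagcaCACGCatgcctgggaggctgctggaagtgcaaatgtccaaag

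The *Hif3a* sites 4111 and 1260 bp into the gene hold neither element in this window. The *Hif3a* site 2233 bp into the gene holds a core and a GR hexamer on each strand, and the *Egln1* site holds a core.

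The lists held 179462 to 198929 peaks each. Of 20 tested sites at the deleted gene, *Nr3c1*, 1 was lower and 1 higher in GR-KO. The lower one, in an intron on chromosome 18 (39428181 to 39428581) had a −log10 p of 126, 135 and 106 in GR-con 1, 2 and 3 against 20.8, 11.2 and 18.6 in GR-KO 1, 2 and 3 (limma adjusted p = 0.000601). The promoters of all 5 astrocyte markers (*Aqp4*, *Slc1a3*, *Aldh1l1*, *Gja1*, *Aldoc*) held a peak in all 6 libraries, between percentiles 74.1 and 99.1 of their lists by −log10 p. Of the markers of other cell types reported here, *Cx3cr1*, *Csf1r*, *Mog* and *Pecam1* had no promoter peak in any library and *Slc17a7* had one in 1 library. The other 9 had one in all 6 libraries, from percentile 12.3 (*Cldn5*) to 92.9 (*Pdgfra*), and their part in the results was not tested.

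For each peak the lists give the −log10 p and the fold enrichment of the summit over the local background. Each was ranked within its library and turned into normal scores, and a score difference below 0 is a lower rank in GR-KO. An absent peak was given the lowest rank, so a site with peaks in 1 condition alone entered the test only through that condition, and its p restates the absence. The 2 columns together also imply whole numbers, namely the summit coverage (the extended cut ends over the summit) and the cut ends in the 10 kb around it, which set the local background. The 10 kb window takes in the peak itself and any peaks beside it, so the local background is not independent of the coverage. For tests, both were divided by the genome background of the library (4.28 to 4.92), which depends on its depth. These derived values were added after the data had been seen. Values of single libraries are given in the order of replicates 1, 2 and 3.

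*Hif3a* held both member sites called lower in GR-KO by rank of −log10 p, 1 with a peak in all 6 libraries and 1 with peaks in GR-con alone. The gene lies on the minus strand of chromosome 7 (17031507 to 17062427, ENSMUSG00000004328.15), and 27 of its 32 sites were tested. The 2 are 1.25% of the 160 member sites, where 0.412% of all tested sites were lower, and nothing is read from that share, since 1 of them passed the filter only through GR-con. At *Hif3a* 0 were higher. By rank of fold 0 were lower and 0 higher at *Hif3a*, and at an unadjusted p under 0.05 the fold was lower at 4 sites and higher at 9 (over all tested sites, 5.35% and 5.48%). The locus held 25, 26 and 29 peaks in GR-con against 20, 21 and 19 in GR-KO, and the groups did not overlap. Per 100000 peaks of a list this was 14.0 ± 0.547 against 11 ± 0.569 (SD, n = 3 each), with an exact permutation p of 0.1, the smallest that 3 against 3 allows.

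The site 4111 bp into *Hif3a* lies in an intron, 1637 bp upstream of an internal transcript start. Its −log10 p was 227, 223 and 195 in GR-con against 111, 83.5 and 109 in GR-KO, a score difference of −0.43 (SE 0.0602, limma adjusted p = 0.00465, and 1.91e-05 among sites with a peak in all 6 libraries). The fold was 6.29, 6.03 and 6.05 against 7.01, 5.89 and 7.04 (limma adjusted p = 0.701). By −log10 p every GR-KO library lay below every GR-con library, and by fold the groups overlapped. Summit coverage was 514, 524 and 455 against 224, 194 and 219, and the 10 kb window held 5390, 5742 and 4957 cut ends against 2072, 2141 and 2018. Over genome background, coverage was 2.3 times and local background 2.53 times as high in GR-con, so the numerator and the denominator of the fold were both lower in GR-KO. The 10 kb window includes this peak and its neighbours, so the 2 are not separate measures. The log2 difference in coverage was −1.19 (SE 0.118, limma adjusted p = 6.11e-21, or 2.52e-15 when scaled to the median site). The call by −log10 p was lost without GR-con 1 (limma adjusted p = 0.081), without GR-con 2 (0.0799), with covering peaks (0.0651) and without the variance trend (0.146), and the call by coverage was kept when any 1 library was left out.

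The intronic site 1260 bp into *Hif3a* had its peak in GR-con alone. Its −log10 p there was 58.1, 80.3 and 23.0, its fold 3.30, 3.72 and 2.37, and its summit coverage 257, 306 and 170. No GR-KO peak reached its centre. The call by −log10 p (limma adjusted p = 0.00611, lost without GR-con 1 or 2 at 0.114 and 0.113 and with covering peaks at 0.0555) restates this absence, and by fold the site was not called (0.286).

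At *Hif3a*, 4 sites including this one held peaks in all GR-con libraries but none of GR-KO, and 0 showed the reverse (1.24% and 0.677% of all tested sites). The sites at 1260 and 981 bp lay in the same peak in every GR-con library (706, 732 and 768 bp wide), so they are not separate regions. The one 981 bp into the gene had a −log10 p of 7.24, 12.9 and 8.60 (limma adjusted p = 0.196). The one 23903 bp into the gene had 7.36, 6.18 and 4.71 (limma adjusted p = 0.345), and the one in an exon at 17983 bp had 4.09, 3.96 and 4.25 (limma adjusted p = 0.477). These 3 were much weaker than the site at 1260 bp, on lists that end at a −log10 p of 2.00.

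The promoter site of *Hif3a*, centred 94 bp upstream of the gene start, had a −log10 p of 153, 139 and 154 in GR-con against 104, 91.7 and 72.7 in GR-KO. The groups did not overlap, but the score difference of −0.26 did not pass the test (SE 0.0600, limma adjusted p = 0.0817, but 0.0154 among sites with a peak in all 6 libraries). The fold was 5.42, 4.97 and 5.63 against 7.26, 6.50 and 5.96, higher in every GR-KO library, although its percentiles within the lists overlapped (limma adjusted p = 0.459). Summit coverage was 393, 387 and 381 against 204, 196 and 166, lower in every GR-KO library and 2.01 times as high in GR-con over genome background (log2 difference −1.01, SE 0.121, limma adjusted p = 4.14e-14, or 2.03e-11 when scaled to the median site). At the promoter the 2 measures thus ordered the conditions in opposite ways.

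**Figure D1:**
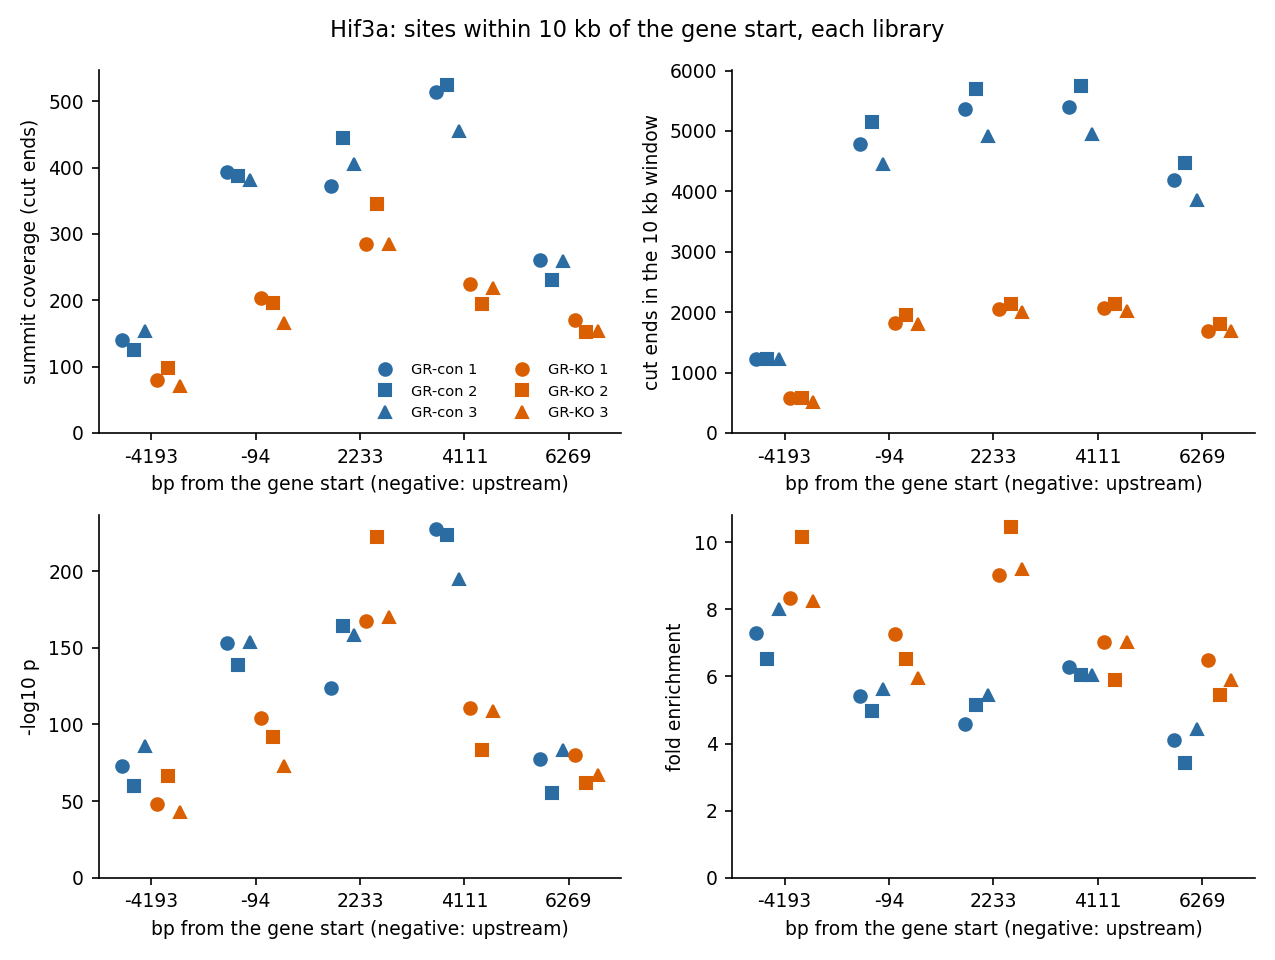
The 5 *Hif3a* sites within 10 kb of the gene start with a peak in all 6 libraries, by bp from the start; each point is a library (colour gives the condition, shape the replicate), and the panels give summit coverage, cut ends in the 10 kb window, −log10 p and fold enrichment. Coverage and window counts are lower in every GR-KO library at all 5 sites, while the mean fold is higher in GR-KO at all 5. The 10 kb limit was set after the values had been seen.

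At the site 2233 bp into *Hif3a* the fold and the coverage also went opposite ways, with a larger difference in fold and a smaller one in coverage than at the promoter. The −log10 p was 123.5, 164 and 158 against 168, 222.5 and 169.97, and the fold was 4.59, 5.14 and 5.43 against 9.0, 10.4 and 9.19. Both columns were higher in every GR-KO library than in any GR-con library, although the percentiles of −log10 p within the lists, 85.5, 89.2 and 89.7 against 89.5, 92.7 and 90.5, overlapped. Neither passed the test (limma adjusted p = 0.349 and 0.0685). Among sites with a peak in all 6 libraries, the fold did (score difference 0.872, limma adjusted p = 0.0376). Summit coverage went the other way, with 373, 444 and 405 against 285, 345 and 285 (log2 difference −0.38, SE 0.117, limma adjusted p = 0.0253). The difference kept its sign without any 1 library, but did not pass the test without GR-con 1 (−0.411, limma adjusted p = 0.0616), GR-con 2 (−0.29, 0.262), GR-KO 1 (−0.313, 0.242) or GR-KO 3 (−0.345, 0.19).

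The remaining 2 of these 5 sites had lower coverage as well. In an intron 6269 bp into the gene, 521 bp past the internal start, coverage was 261, 231 and 259 against 170, 152 and 154 (limma adjusted p = 9.63e-05), and 4193 bp upstream of the gene it was 140, 125 and 154 against 80, 98 and 71 (limma adjusted p = 0.000268). All 5 sites within 10 kb of the start thus had lower coverage in GR-KO (log2 −1.19 to −0.38), and 0 of the 13 farther sites passed (log2 −0.61 to 0.18, smallest limma adjusted p = 0.0559). Among all 115879 sites with a peak in all 6 libraries, 3.75% were lower and 1.89% higher. The 10 kb limit was not planned and was set after the values had been seen, so the split only describes these sites. Whether near and far sites differ from each other was not tested.

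**Figure D2:**
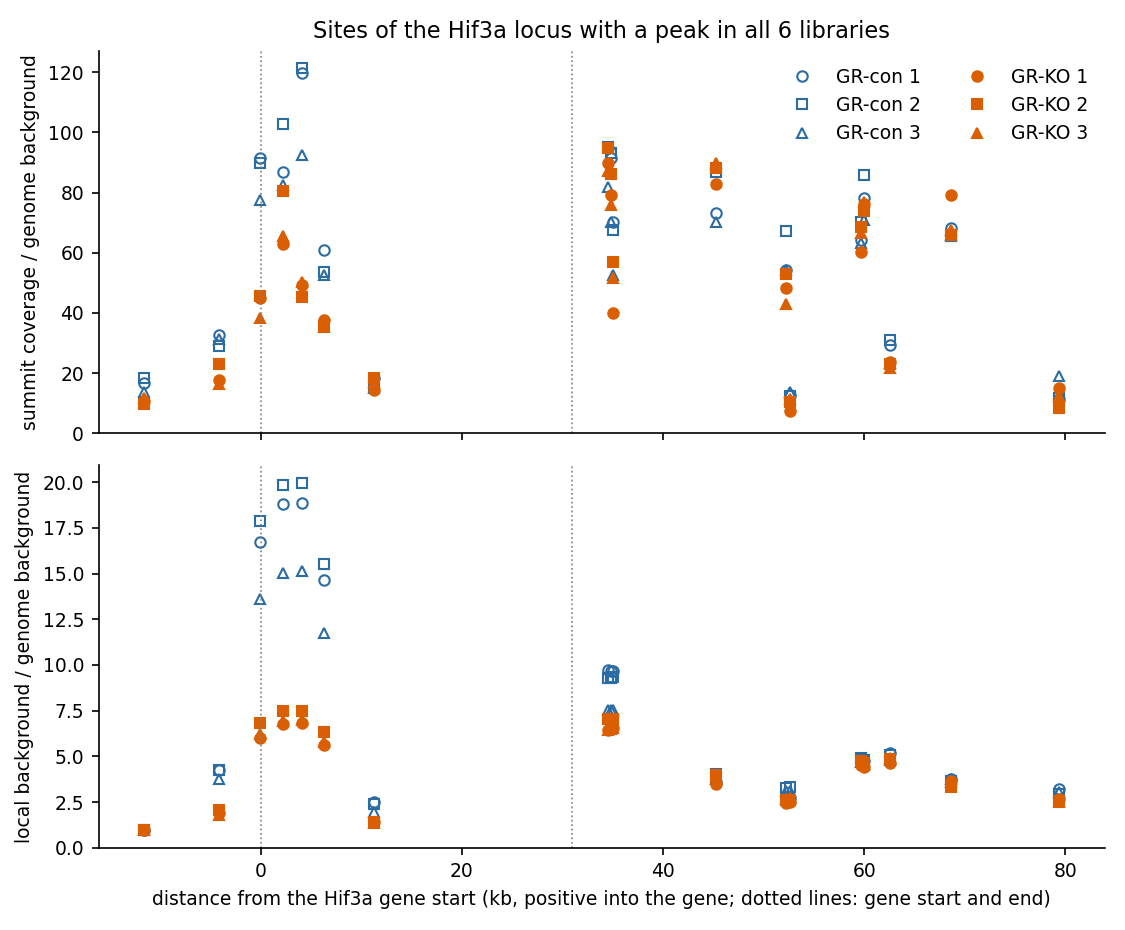
Summit coverage (top) and local background (bottom), each over the genome background of its library, at the 18 sites of the *Hif3a* locus with a peak in all 6 libraries, by kb from the gene start; open symbols are GR-con, filled symbols GR-KO, and dotted lines mark the gene start and end. The local background of GR-con is 2.13 to 2.53 times that of GR-KO at the 5 sites within 10 kb of the start and 1.0 to 1.62 times at the 13 farther ones. The 10 kb limit was set after the values had been seen.

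The local background was lower in GR-KO at 12 of 17 *Hif3a* sites and higher at 0 (9 and 0 when scaled to the median site). Over the 74201 sites whose background exceeded that of the genome in every library, 9.86% were lower and 3.49% higher (6.90% and 8.58% when scaled to the median site). Windows of neighbouring sites share cut ends, so these counts are not independent. In an exon 11240 bp into the gene, 524 bp upstream of another transcript start, the window held 722, 696 and 635 cut ends against 435, 407 and 400, while coverage was 79, 67 and 73 against 65, 78 and 74 and overlapped (limma adjusted p = 0.977). At the promoter of the next gene, *Ppp5c*, which encodes a protein phosphatase, coverage was 407, 411 and 402 against 407, 406 and 379 (limma adjusted p = 0.997), and the window held 2776, 2674 and 2465 cut ends against 1947, 2010 and 1874. In an intron of *Ppp5c*, 442 bp past its start, coverage was 301, 292 and 258 against 182, 244 and 224, and over genome background the groups overlapped (log2 difference −0.36, limma adjusted p = 0.0559). On the other side, 44 bp upstream of *Psg16*, it was 71, 79 and 68 against 48, 41 and 51, and there the −log10 p and the fold were lower in every GR-KO library too (log2 difference in coverage −0.61, limma adjusted p = 0.0583). Neither difference in coverage passed the test. In the exon and at the *Ppp5c* promoter, the −log10 p and the fold were higher in every GR-KO than in any GR-con library. The fold in the exon was 6.76, 5.94 and 7.03 against 8.77, 11.1 and 10.7 (limma adjusted p = 0.146). At the *Ppp5c* promoter it was 9.57, 10.0 and 10.6 against 13.5, 13.1 and 13.1 (limma adjusted p = 0.164). By −log10 p the limma adjusted p was 0.363 and 0.415.

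*Hif1a*, which encodes the α subunit of HIF-1, lies on the plus strand of chromosome 12 (73901375 to 73947530, ENSMUSG00000021109.13). Of its 18 tested sites, 0 passed in either ranking, and their median score difference by −log10 p was −0.0826, where that of all tested sites was 0.0076. Its strongest promoter site, 92 bp upstream of an alternative start and in an intron of the antisense gene *Gm15283*, had a −log10 p of 445, 484 and 418 against 529, 465 and 475 (score difference 0.11, SE 0.0784, limma adjusted p = 0.625), and the groups overlapped. A site 53689 bp past the gene start, in an intron of *Gm49321*, had its peak in GR-con alone, with a −log10 p of 18.8, 8.87 and 17.03 (score difference −1.29, limma adjusted p = 0.104). Coverage at its summit was 33, 21 and 33, and no GR-KO peak reached its centre.

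*Epas1*, which encodes HIF-2α, lies on the plus strand of chromosome 17 (86753700 to 86833410, ENSMUSG00000024140.10) and had the most sites, 46 of 55 of them tested. By rank, 0 passed. The promoter site 176 bp upstream had a −log10 p of 353, 324 and 330 against 428, 334 and 337, with overlapping groups (limma adjusted p = 0.678). An intronic site 16367 bp into the gene had 208, 253 and 175 against 135, 145 and 123, with no overlap (score difference −0.26, SE 0.0629, limma adjusted p = 0.103, but 0.0158 among sites with a peak in all 6 libraries). Its summit coverage, 294, 355 and 282 against 215, 218 and 210, fell by 0.49 on the log2 scale (SE 0.122, limma adjusted p = 0.00251), and that call was lost without GR-con 2 (0.144). No other member site outside *Hif3a* was called lower by coverage under either scaling.

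At *Epas1*, 1 site had its peak in GR-KO alone, 18765 bp into the gene, with a −log10 p of 10.8, 9.88 and 8.30 (limma adjusted p = 0.116). No GR-con peak reached its centre. Sites 28276 and 68989 bp into the gene had peaks in GR-con alone, with a −log10 p of 4.70 to 6.90 and 3.23 to 8.31 (limma adjusted p = 0.348 and 0.397). All 3 lie in introns. A further intronic site, 32129 bp into the gene, had coverage of 258, 346 and 318 against 344, 409 and 352, which passed when scaled to the median site (limma adjusted p = 0.0061) and not when scaled to genome background (0.116).

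*Arnt*, the shared partner of the α subunits, lies on the plus strand of chromosome 3 (95434388 to 95497240, ENSMUSG00000015522.18). It had the fewest sites, and 0 of the 10 tested passed in either ranking. Its promoter site, 74 bp upstream, had a −log10 p of 462, 520 and 462 against 529, 503 and 572 (score difference 0.18, SE 0.120, limma adjusted p = 0.583), and the groups overlapped. The site of smallest p, in an intron 16244 bp into the gene, had 56.4, 49.1 and 66.0 against 34.6, 40.2 and 19.5, with no overlap (score difference −0.26, SE 0.0947, limma adjusted p = 0.307). Its coverage was 68, 62 and 85 against 50, 54 and 34 (limma adjusted p = 0.0548).

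*Egln1*, whose product PHD2 is the main oxygen sensor of the pathway, lies on the minus strand of chromosome 8 (124908587 to 124949324, ENSMUSG00000031987.6). It held the only member site called higher in GR-KO by rank of −log10 p, 0.625% of the member sites where 0.308% of all tested sites were higher. Nothing is read from that share, since the site passed the filter only through GR-KO. This intronic site, 22662 bp into the gene, had its peak in GR-KO alone, with a −log10 p of 18.4, 24.9 and 40.0 and a summit coverage of 43, 51 and 71 (limma adjusted p = 0.0167, and 0.0603 by fold). All 3 GR-con libraries, however, had a peak that covered its centre. At a neighbouring site 22863 bp into the gene all 6 libraries had a summit, with a −log10 p of 55.0, 53.6 and 51.8 against 55.7, 75.5 and 69.0 (limma adjusted p = 0.436). With any covering peak counted, the score difference at the called site was 0.178 (limma adjusted p = 0.387), so the call concerned an additional summit within a region open in both conditions. It was also lost without GR-con 1, GR-con 2 or any GR-KO library (limma adjusted p = 0.0681 to 0.1). The *Egln1* promoter site, 77 bp upstream, had 218, 248 and 222 against 181, 216 and 229, with overlapping groups (limma adjusted p = 0.821).

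*Egln3*, a HIF target that itself encodes the hydroxylase PHD3, lies on the minus strand of chromosome 12 (54178981 to 54203860, ENSMUSG00000035105.5). Of its 13 tested sites 0 passed, with a median score difference of −0.1715. At 6 of them the percentile of −log10 p was lower in every GR-KO library than in any GR-con library, as at 9.84% of all tested sites, and at 0 it was higher in every one (5.88%). The promoter site 14 bp upstream was one of them, with a −log10 p of 349, 354 and 340 against 314, 319 and 291 (score difference −0.11, SE 0.0549, limma adjusted p = 0.459). An intronic site 11702 bp into the gene had 312, 310 and 295 against 286, 257 and 187 (score difference −0.18, limma adjusted p = 0.322). By coverage 0 of 6 sites passed under either scaling.

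*Vegfa*, which encodes a vascular growth factor and is a HIF target, lies on the minus strand of chromosome 17 (46016993 to 46032369, ENSMUSG00000023951.17). Of its 24 tested sites 0 passed in either ranking. The promoter site 42 bp upstream had a −log10 p of 139, 149 and 149 against 130, 172 and 149 and a fold of 5.84, 5.73 and 5.98 against 5.68, 5.87 and 5.94 (limma adjusted p = 0.812 and 0.95). Both overlapped. A weaker summit 272 bp upstream was listed in GR-con alone, with a −log10 p of 6.60, 8.12 and 9.75 (limma adjusted p = 0.231), and 2 GR-KO libraries had a peak that covered it.

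**Figure D3:**
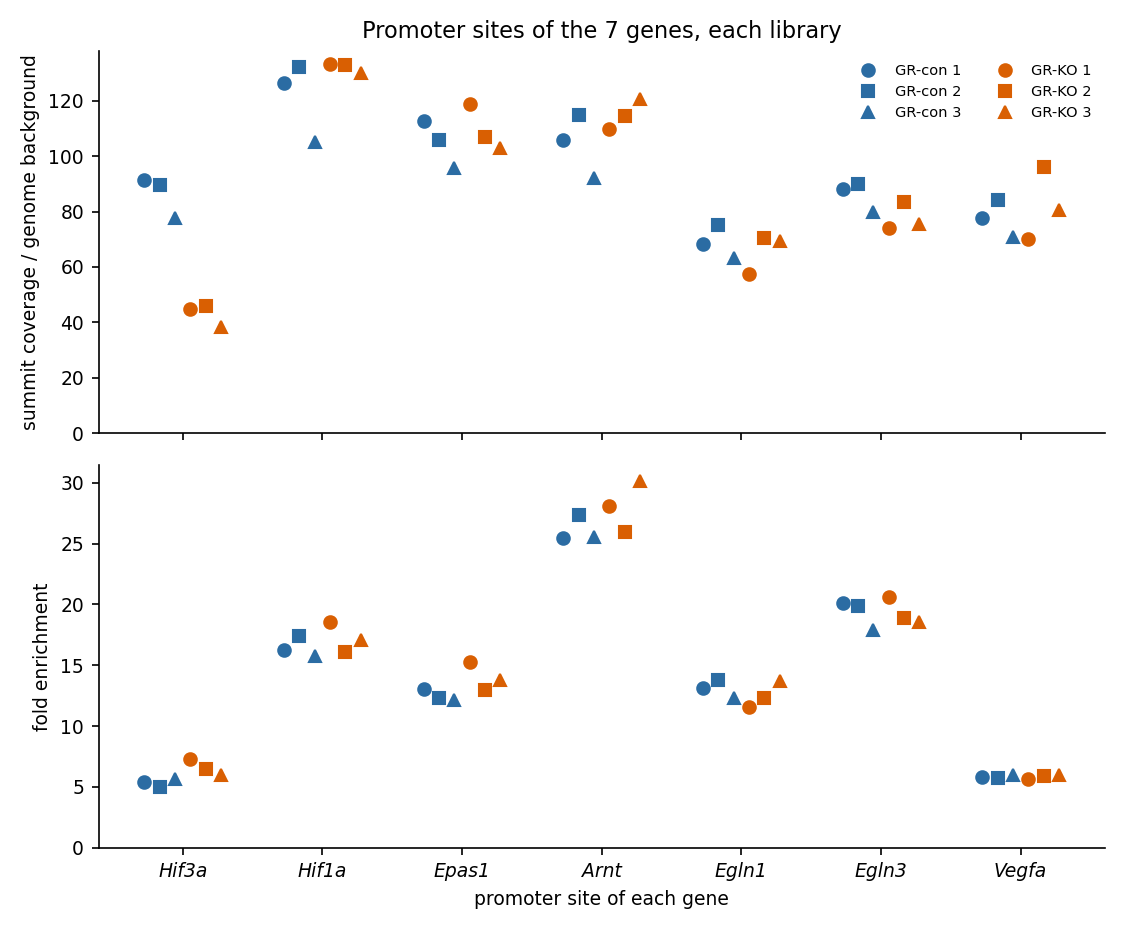
Summit coverage over genome background (top) and fold enrichment (bottom) at the promoter site of each gene; each point is a library. At *Hif3a* the GR-KO points lie below the GR-con points in coverage and above them in fold, and at the other 6 promoters no difference in coverage passed the test (limma adjusted p of 0.578 or more).

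Over the 160 member sites the median score difference was −0.0083 by −log10 p and 0.032 by fold, where all tested sites had 0.0076 and 0.018. By −log10 p, 20 member sites were lower and 10 higher at an unadjusted p under 0.05 (5.43% and 5.95% of all tested sites). By fold, 0 passed the adjusted test in either direction (0.0523% and 0.0247% of all tested sites), and 11 were lower and 13 higher at an unadjusted p under 0.05. Peaks in GR-con alone, in all its libraries, were seen at 8 member sites (5 with centres 400 bp apart) and in GR-KO alone at 2 (1.24% and 0.677% of all tested sites). The percentiles of −log10 p did not overlap at 27 sites that were lower in GR-KO and at 7 that were higher (9.84% and 5.88% of all tested sites). By coverage, 6 of 82 sites were lower in GR-KO under either scaling (4 without GR-con 2 and 9 without GR-con 3, over genome background, the lowest and highest count without 1 library), and 0 were higher, or 1 when scaled to the median site. Under that scaling 2.71% of all sites were lower and 4.04% higher, so over all sites the balance of directions turned with the scaling.

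**Figure D4:**
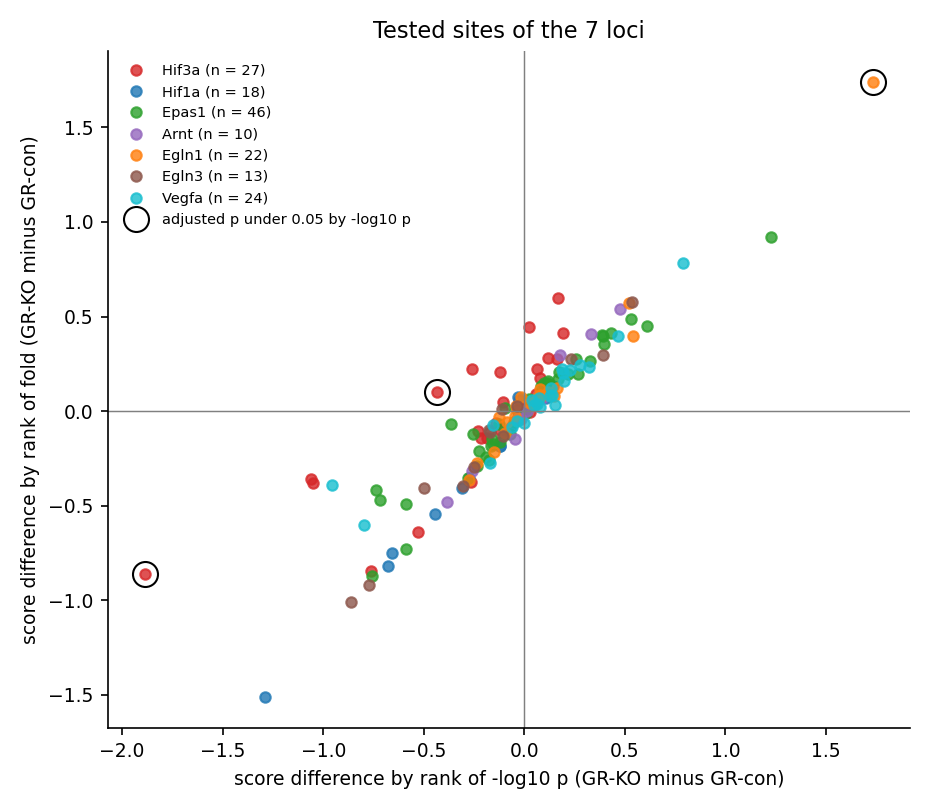
Score differences (GR-KO minus GR-con, no unit) of the 160 tested member sites by rank of −log10 p (horizontal axis) and of fold (vertical axis), coloured by gene; black circles mark the 3 sites with an adjusted p under 0.05 by −log10 p, 2 of *Hif3a* to the left of 0 and 1 of *Egln1* to the right, and 2 of the 3 have peaks in 1 condition alone. The medians over all points are −0.0083 and 0.032.

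The number of peaks per locus, per 100000, was free of overlap between the conditions at *Hif3a* alone. The exact permutation p was 0.5 for *Hif1a*, 0.9 for *Epas1*, 1.0 for *Arnt*, 0.9 for *Egln1*, 0.7 for *Egln3* and 0.8 for *Vegfa*. The rates at *Epas1* were 20.8 ± 0.563 in GR-con and 20.8 ± 1.70 in GR-KO (SD, n = 3 each), and those at *Vegfa* 10.7 ± 1.22 and 10.4 ± 1.87.

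**Figure D5:**
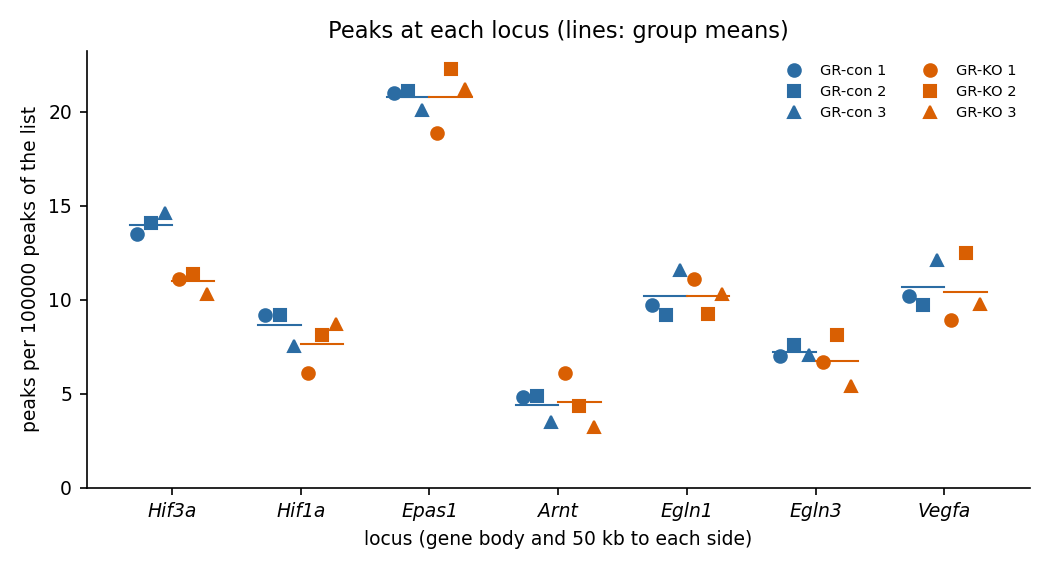
Peaks at each locus per 100000 peaks of the list; each point is a library and the lines are group means. The GR-con and GR-KO points are apart at *Hif3a* (14.0 and 11 on average) and overlap at the other 6 loci.

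Sequence elements were looked up within 100 bp of each centre, on both strands. The GR motif, GNACA and TGTNC with 3 bases between, was at 0 of 160 member sites and at 0.586% of all tested sites. The GR hexamer was at 20 member sites (12.5%, where all tested sites had 16.9%), 11 of them at *Epas1*, among them the site with lower coverage, and 1 at *Hif3a*. The hypoxia response core was at 58 member sites (36.2%, where all tested sites had 25.0%), 11 of them at *Hif3a*, 8 at *Hif1a*, 16 at *Epas1*, 3 at *Arnt*, 10 at *Egln1*, 5 at *Egln3* and 5 at *Vegfa*. The AP-1 motif TGANTCA was at 6.25% of member sites and 6.02% of all tested sites, and the NFI motif (TTGGC and GCCAA with 5 bases between) at 0 and 0.0523%.

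A wider list of HIF genes was read by the same rule. At 8 further partners and regulators, 2 of 170 tested sites were lower and 1 higher in GR-KO by −log10 p (1.18% and 0.588%), and at 20 target genes 4 of 464 were lower and 0 higher (0.862% lower), where 0.412% of all tested sites were lower and 0.308% higher. By fold 0 passed in either group. The median score differences by −log10 p were −0.0061 and 0.0144.

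Among targets, 1 lower site was in an intron of *Kdm3a*, which encodes a hypoxia-induced histone demethylase, 10828 bp into the gene on chromosome 6. It had a −log10 p of 162, 142 and 111 against 26.5, 12.8 and 22.3 (score difference −0.93, SE 0.0988, limma adjusted p = 0.000902). Its summit coverage was 194, 179 and 143 against 42, 26 and 37, 4.86 times as high in GR-con over genome background. The groups were far apart by both measures.

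The other 3 lower target sites were at *Ddit4*, which encodes an mTORC1 inhibitor induced by hypoxia and by glucocorticoids, on chromosome 10. They lay 30579 bp past its start and 18102 and 22442 bp upstream of it (limma adjusted p = 0.0324, 0.00127 and 0.00104). The site 18102 bp upstream had a −log10 p of 222, 284 and 189 against 70.8, 88.2 and 80.1. The site 22442 bp upstream had 109, 104 and 70.9 against 16.9, 10.4 and 11.8, and a coverage of 209, 216 and 160 against 49, 39 and 41. It is shown because it was the only called site, among the members and the wider list, that held the GR motif. Capitals mark the motif with its flanking hexamer bases and a further hexamer.
*Ddit4*, intergenic, 22442 bp upstream, chr10:59974176-59974376: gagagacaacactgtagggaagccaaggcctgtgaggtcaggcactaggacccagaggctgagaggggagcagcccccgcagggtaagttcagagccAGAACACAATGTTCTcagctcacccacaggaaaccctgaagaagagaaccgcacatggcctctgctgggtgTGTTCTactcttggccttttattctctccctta

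The motif spans the centre of the site and also meets the stricter form (AGAACA and TGTNC with 3 bases between), which 0.154% of all tested sites hold. Among regulators, a site at the locus of *Egln2*, which encodes the hydroxylase PHD1, lay 1767 bp upstream of *Cyp2f2* and had a −log10 p of 73.5, 83.6 and 42.5 against 7.12, 14.4 and 8.81 (limma adjusted p = 0.00634). Both calls at the *Vhl* locus lay in introns of the neighbouring gene *Irak2*. The one 21013 bp past the *Vhl* start had 101, 161 and 103 against 45.0, 44.1 and 51.1 (limma adjusted p = 0.02). The one 54092 bp past it had 37.5, 46.1 and 40.9 against 84.1, 91.6 and 92.1 (limma adjusted p = 0.0093), and it was the only site of the wider list called higher in GR-KO.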

How the data were processed

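ATAC-seq was analysed from 1 peak list per library, as the authors deposited them. The authors ran the ENCODE ATAC-seq pipeline on mm10. Their methods state default parameters, and their reporting summary lists a few set ones, with a p threshold of 0.01. Peaks were listed separately for each library, from a −log10 p of 2.00 upwards. The version of the peak caller is not given in the sources used here. The deposited columns are a fold (the ratio of summit to local background), the −log10 of the p-value and of the q-value, and a capped score, which was not used. The lists hold no read counts, so the differential test of the authors was not repeated. Genes are from GENCODE M21 and sequences from the GRCm38 reference.

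The members, lists and tests were chosen with earlier results of these data known. Centres were taken by falling percentile of −log10 p, more than 200 bp apart, and each summit went to its nearest centre within 200 bp. An absent peak ranked lowest. Normal scores were compared with limma 3.58.1 in R 4.3.3 (two-sided, variance trend, no block), with Benjamini-Hochberg adjustment over all tested sites and a threshold of 0.05. The tests were checked on simulated data. P-values by rank rest on the spread between these pooled libraries, moderated by the trend over all sites.

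With fold = (k + 1)/(b + 1), and p the Poisson tail at coverage k over local background b, k was whole within 0.02 for 1116429 of 1116429 peaks. Where b lay above the genome background, it was a whole multiple of 0.015 (150 bp of each cut end over 10 kb) within 0.1 of a step for 756279 of 756329 peaks. For coverage and local background, limma took the spread from the trend over sites (infinite prior degrees of freedom, beside 4 residual). When scaled to the median site, the prior degrees of freedom were 75.5 for coverage and 26.6 for local background. These p-values thus hardly use the spread at the single site. Read totals are not in the lists, so the depth is known only through the genome background.

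Named at each gene were the strongest site within 1 kb of a protein-coding start, each called site, at most 3 sites with peaks in 1 condition alone per direction, and the site of smallest p. Wider-list genes were named where a site was called. Other named sites were chosen after their values were seen. A cell type marker is not reported here. The alternatives were a q-value under 0.01, equal list lengths, covering peaks, centres 400 bp apart, 1 or all 6 libraries with a peak, a threshold of 0.01, no variance trend, a replicate block, each library left out, 20 or 200 kb to each side, and other motif windows and forms. Python 3.11.15, scipy 1.17.1 and pysam 0.24.0 were used.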

Additional observations from a re-analysis of the deposited data

How the results depend on the processing

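By rank of −log10 p, the 882 lower and 661 higher sites became 1350 and 1229 with centres 400 bp apart, 1964 and 2027 with a peak in all 6 libraries, 1432 and 1018 without the variance trend and 362 and 196 at an adjusted p under 0.01, and the higher ones 1018 with a peak in 1 library or more. Without 1 library they were 107 to 501 and 156 to 290. Of members, 2 lower and 1 higher became 0 and 0 with covering peaks, 5 lower with centres 400 bp apart, 5 and 2 without the trend, 0 higher with a peak in all 6 libraries or at 0.01, 3 higher with 200 kb to each side, and 0 to 2 and 0 to 1 without 1 library. By rank of fold, 112 lower and 53 higher became 885 and 423 with covering peaks, 204 and 99 at 400 bp, 196 and 95 with 1 library or more, 243 and 173 with all 6, 1397 and 1007 without the trend, 5 and 3 at 0.01, 34 higher with equal list lengths, and 0 to 3 and 0 to 1 without 1 library. Of members, 0 and 0 became 3 and 2 without the trend and 1 higher with all 6 libraries. The cause of these shifts was not tested.

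The labels give replicate numbers without saying whether they pair the samples. Deviations of same-number libraries correlated at 0.0243, −0.00084 and 0.0211 by −log10 p, and those of different numbers at −0.0261 to 0.00525. Not every library correlated best with its own number, and values this weak do not settle the pairing. With the replicate block, 345 sites were lower and 167 higher by −log10 p (1 and 0 of members, as the *Hif3a* site at 1260 bp and the *Egln1* site lost their calls at 0.052 and 0.0958 in limma), and 0 and 0 by fold.

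Sites with peaks in GR-con alone were 4457 to 5842 without 1 library, and 5 of members with centres 400 bp apart. Those in GR-KO alone were 939 with covering peaks (1 of members, also at 400 bp), 8 of members with 200 kb, and 2559 to 3715 without 1 library (2 to 5 of members). Without 1 library, lower coverage was called at 2317 to 4884 sites (4 to 9 of members) and higher at 1331 to 1842 (0 to 1 of members), and higher at 4678 when scaled to the median site (1 of members). Higher background was then called at 6366. Within 200 bp, 24.4% of member sites held the GR hexamer (30% of all tested sites), 53.1% the hypoxia core (40.9%), 11.9% the AP-1 motif (11%) and 0.625%, 1 *Epas1* site, the GR motif (0.941%). The GR-KO minus GR-con difference in peaks per 100000 turned to −0.308 (q-value under 0.01) and −0.186 (equal lengths) at *Epas1*, −0.186 (equal lengths) at *Egln1*, and 0.133 and 0.371 at *Vegfa*. The *Egln1* promoter score was −0.0896 to 0.00283 without 1 library. Of 319 alternatives for the named sites, 290 kept direction and side of the threshold, 15 lost a call, 13 gained one and 1 turned direction. Most of the 319 concern sites that were not called in the main setting. All 15 lost calls were of the called *Hif3a* and *Egln1* sites by −log10 p. Leaving out libraries was not run for the wider list or the local background.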

Other observations

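The local background, the number of cut ends in the 10 kb around a summit, also differed between conditions at 6 member sites outside *Hif3a*, 4 lower and 2 higher in GR-KO. At *Vegfa*, a site 18499 bp past the gene start had 599, 725 and 748 cut ends in GR-con and 809, 1122 and 839 in GR-KO, every GR-KO library above every GR-con library (log2 difference over genome background 0.446, adjusted p = 1.46e-06 from limma, and 9.7e-05 when scaled to the median site). Its summit coverage was 48, 89 and 79 against 104, 102 and 70 and overlapped (adjusted p = 0.180 from limma). At *Egln3*, a site 5851 bp into the gene had 676, 598 and 818 cut ends against 530, 549 and 557 (log2 difference −0.307, adjusted p = 0.00409 from limma, and 0.0341 when scaled to the median site). A second *Egln3* site, 11702 bp into the gene, had 940, 873 and 1095 against 829, 822 and 771 (adjusted p = 0.0417 from limma), and did not pass when scaled to the median site (0.0989). At *Egln1*, the site 22863 bp into the gene had 411, 445 and 554 against 524, 520 and 577, which overlapped as counts and not over genome background (log2 difference 0.247, adjusted p = 0.0401 from limma, and 0.0144 when scaled to the median site). *Epas1* had 2 such sites, 13524 and 16367 bp into the gene, with 1493, 1790 and 1842 against 1370, 1230 and 1413, and 1560, 1854 and 1877 against 1411, 1305 and 1536 (adjusted p = 0.000854 and 0.00437 from limma). Their windows overlap. Over all members, 16 of 66 sites had a lower and 2 a higher local background in GR-KO (12 and 2 when scaled to the median site). Over all 74201 sites it was 7317 lower and 2586 higher, and 5123 and 6366 when scaled to the median site. These sites were chosen after their values were seen.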
